A study of Mus musculus with 6 samples.

Results

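Collagens and lysyl oxidases made up 48 of the 49671 genes in the deposited table. They were chosen by gene symbol: 43 genes of collagen chains, without the hemidesmosome collagen gene Col17a1, and the 5 genes of the lysyl oxidase family, Lox and Loxl1 to Loxl4. Of these, 22 had a mean of at least 20 over the 6 libraries and were tested, and 26 lay below it. The lowest tested gene was Col4a3, with a mean of 21.5, and the highest below was Col8a2, with 19.5. The values are reads per gene that the authors scaled to 20 M per library and rounded, and levels are given in that unit.

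Collagens are secreted proteins whose alpha chains wind into helices of repeated glycine triplets. Type IV chains form the network of basement membranes, type VII forms the fibrils that anchor skin epithelium to the dermis, and the fibrillar types I, III, V, XI and XXVII form rope-like fibrils, which in skin are made mainly by fibroblasts. Lysyl oxidases are copper enzymes that oxidise lysines of collagen and elastin outside the cell, which starts the cross-linking of fibrils.

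The series sequenced RNA of LKPR EPCAM+ cells, the epithelial line of a murine skin squamous cell carcinoma that carries the alleles Lgr5CreER, KrasLSL-G12D, p53fl/fl and Rosa26-YFP+/+, which all groups share. In KDNTN1 cells Ntn1, the gene of the secreted ligand netrin-1, was knocked down, in KDUNC5B cells Unc5b, the gene of a netrin receptor, and EmptyVector cells carried the vector alone. Each group was transduced by lentivirus and has 2 libraries. Day 6 cultures were sorted for living cells positive for YFP and EPCAM, so cells without EPCAM were not measured. The tumour alleles were switched on by a Cre under the Lgr5 promoter, all libraries come from 1 line, and the number of hairpins is not given. Since separate cultures of the libraries are not stated either, the tests weigh differences against a spread between libraries that may be technical. With 2 libraries against 2, an exact permutation p could be no smaller than 0.333, so groups without overlap are reported as description only. The p-values below come from a model over all genes.

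Estimated depth was 6.54 to 10.2 M reads per library, and 3 reads corresponded to values of 5.90 to 9.17, a floor that covers counting error only. Ntn1 was at 359 and 431 in KDNTN1 cells, 1319 and 771 in KDUNC5B cells and 1566 and 2588 in EmptyVector cells, and Unc5b was at 2311 and 2382, 419 and 352, and 1527 and 1573 in the same order, so each target was lowest in the libraries labelled with its knock-down. Unc5b was also higher in KDNTN1 than in EmptyVector cells (log2 fold change 0.60 ± 0.13, limma adjusted p = 0.0193). Ntn1 in KDUNC5B against EmptyVector cells was at -0.99 ± 0.29 and did not pass (0.0638). It was lower in KDNTN1 than in KDUNC5B cells (-1.35 ± 0.29, 0.0316). The call of Unc5b in KDNTN1 cells and the last one were lost in some other settings of the fit. The epithelial markers were present in every library, with Epcam between 8032 and 10127. Their summed level was 61326 and 58291 in KDNTN1 cells, 46354 and 50869 in KDUNC5B cells and 47068 and 46312 in EmptyVector cells. Krt5 among them was at 1034 and 1027, 697 and 776, and 287 and 320 in the same order. Of 10 listed fibroblast markers, 2 reached a mean of 20 and Dpt was listed at 0 in every library, while Dcn, Lum and Thy1 did not exceed 4. The summed level of that list was 264 and 205 in KDNTN1 cells, 217 and 179 in KDUNC5B cells and 118 and 113 in EmptyVector cells, most of it Pdgfra. The 6 endothelial markers summed to 190 and 238, 98 and 102, and 108 and 96 in the same order, and Cdh5 among them was at 86 and 113 in KDNTN1 cells and at 2 or below elsewhere. The 6 markers of melanocytes and nerve summed to 387 and 357, 378 and 329, and 1557 and 1153, and the immune markers to 347 and 446, 1577 and 1008, and 1219 and 1517. The part of these differences in the collagen results was not tested. In bulk libraries, a change in the number of cells that express a gene and a change in RNA per cell cannot be told apart.

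The type IV collagen genes lie in head-to-head pairs, and the sequence around the starts of the pair that leads in these cells is shown because both of its genes were lower in both knock-downs. In the RefSeq table of GRCm38.p6, the starts of Col4a2 (chr8:11312555-11312854 on the plus strand, 250 bases before to 50 bases after the start) and Col4a1 fall in the same window, and the capitals mark the 22 bases that run from the Col4a2 start to the Col4a1 start, over which the first exons overlap on opposite strands. The window of Col4a4 (chr1:82586800-82587099 on the minus strand) is shown beside it for a pair with much lower levels, and there the capitals mark the 71 bases between the Col4a4 start and the start of Col4a3 in GENCODE M21. The third pair, Col4a5 and Col4a6, has 1308 bases between its starts.
Col4a2 and Col4a1: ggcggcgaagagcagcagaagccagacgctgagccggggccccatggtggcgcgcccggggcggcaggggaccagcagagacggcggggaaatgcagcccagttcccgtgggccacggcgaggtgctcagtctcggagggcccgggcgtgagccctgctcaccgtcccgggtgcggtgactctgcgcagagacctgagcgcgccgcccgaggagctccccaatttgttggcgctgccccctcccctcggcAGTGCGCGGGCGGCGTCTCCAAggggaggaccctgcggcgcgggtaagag
Col4a4 and Col4a3: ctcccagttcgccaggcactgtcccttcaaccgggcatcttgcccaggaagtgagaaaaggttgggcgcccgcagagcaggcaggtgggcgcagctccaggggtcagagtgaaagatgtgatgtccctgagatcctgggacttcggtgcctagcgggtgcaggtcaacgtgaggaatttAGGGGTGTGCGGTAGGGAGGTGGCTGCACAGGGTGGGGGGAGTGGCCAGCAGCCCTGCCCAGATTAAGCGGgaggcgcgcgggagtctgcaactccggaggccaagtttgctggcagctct

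The window of Loxl4 (chr19:42612757-42613056 on the minus strand) is shown for the lysyl oxidase with the highest level, which was also lower in both knock-downs. Capitals mark its 3 matches to the GC box, GGGCGG.
Loxl4: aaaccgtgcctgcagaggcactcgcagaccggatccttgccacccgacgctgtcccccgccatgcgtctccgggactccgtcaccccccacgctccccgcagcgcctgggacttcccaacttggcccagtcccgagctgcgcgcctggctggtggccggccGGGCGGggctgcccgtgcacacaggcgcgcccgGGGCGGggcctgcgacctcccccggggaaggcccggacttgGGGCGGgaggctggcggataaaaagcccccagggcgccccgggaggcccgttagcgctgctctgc

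RefSeq windows were found for 35 of the 48 genes and for 16 of the 22 tested ones, and 4 motifs were searched on both strands, none of which contains another. A gene with several windows, among the tested ones Col18a1, was counted if any of them matched, whereas the shares of all genes are per window. The GC box was in 12 of the 16 tested genes with a window and in 35.7% of the 32851 windows of all genes. It occurred 3 times in the Col4a2 window and once in that of Col4a1, and since these windows overlap a match can count in both. CCAAT was in 6 of the 16 genes, Col4a1 and Col4a2 among them, and in 37.4% of all windows. TATAAA was in 2 of the 16, Col10a1 and Col11a2, against 13.6% of all windows, and the AP-1 motif TGANTCA was in Col6a1 alone, against 7.81%. These matches describe the letters of the windows.

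A few genes carried most of the collagen RNA. Per kilobase of exon length, Col4a1 was at 1106 ± 65.2 in KDNTN1 cells, 980 ± 17.9 in KDUNC5B cells and 1656 ± 64.5 in EmptyVector cells (SD, n = 2 in each group). Col8a1, a short-chain collagen of vessel and corneal matrices, was at 1122 ± 15.2, 1113 ± 311 and 1039 ± 291 per kilobase in the same groups. Col4a2 was at 825 ± 53.6, 712 ± 32.7 and 1357 ± 167, and Col18a1, whose product releases endostatin, was at 1024 ± 57.8, 828 ± 69.2 and 558 ± 24.9. Col7a1 stood at 488 ± 91.0, 528 ± 36.6 and 488 ± 64.1 per kilobase.

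Together these 5 genes held 80.8% to 89.9% of the summed per-kilobase level of all 48 genes in each library. In EmptyVector cells Col4a1 and Col4a2 had the highest means of the 48 per kilobase, but with the longest transcript as the length Col8a1, at 1594, lay between Col4a1 at 1869 and Col4a2 at 1392. In both knock-downs Col8a1 and Col4a1 lay within their spread of each other, and by the longest transcript Col8a1 was at 1720 and 1707 against 1247 and 1105 for Col4a1 in KDNTN1 and KDUNC5B cells. The next by mean per kilobase was Loxl4, at 126 ± 2.52, 239 ± 72.7 and 545 ± 98.2 in KDNTN1 cells, KDUNC5B cells and EmptyVector cells, which in EmptyVector cells did not differ from Col18a1 and Col7a1 beyond the spread.

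**Figure D1:**
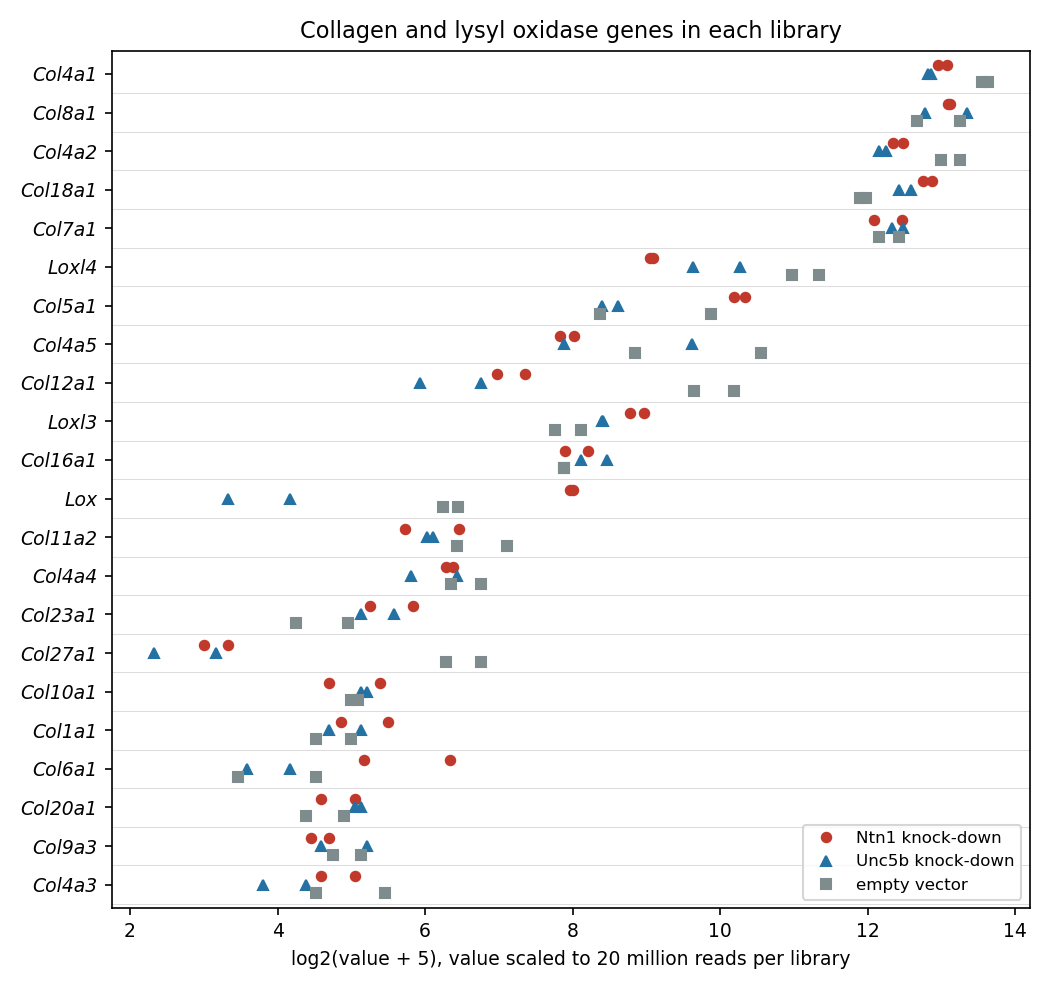
Level of each of the 22 tested genes in each library, as log2(value + 5) on the horizontal axis, with genes ordered by mean from the top. Each symbol is 1 library; Col12a1 and Col27a1 show both knock-downs far to the left of EmptyVector cells, and Lox shows KDNTN1 cells to the right and KDUNC5B cells to the left of EmptyVector cells.

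**Figure D2:**
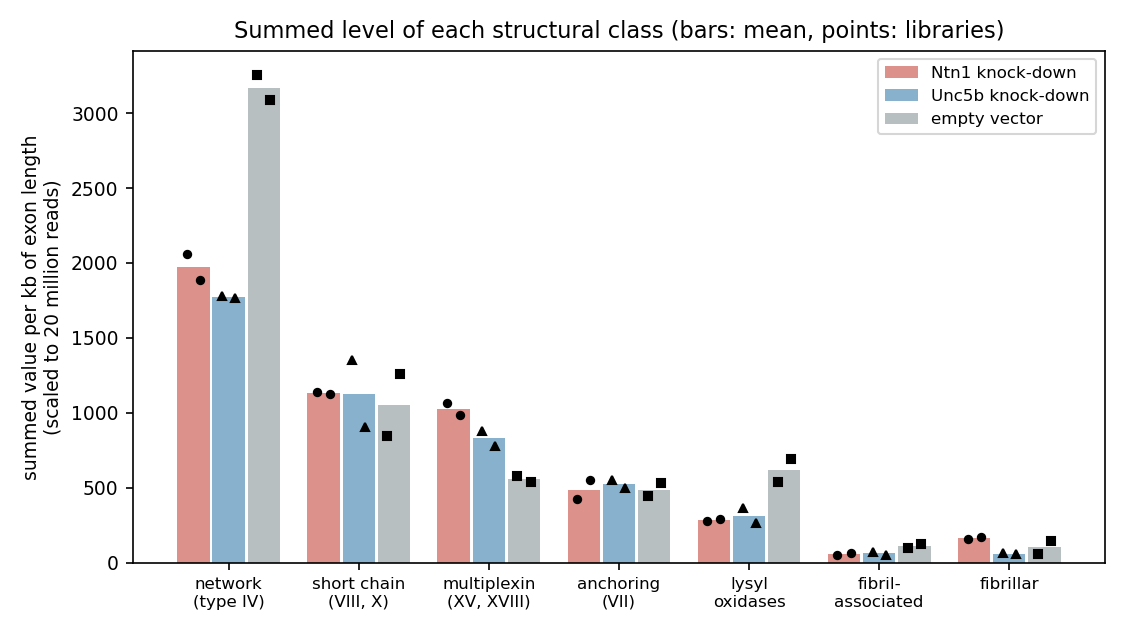
Summed level per kilobase of exon length (vertical axis, scaled to 20 M reads) for 7 structural classes, with bars at the mean of 2 libraries and points at the libraries. The type IV class is lower in both knock-downs than in EmptyVector cells, and the multiplexin class, which is nearly all Col18a1, is higher.

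The summed per-kilobase level of all 48 genes was 5153 ± 54.7 in KDNTN1 cells, 4710 ± 525 in KDUNC5B cells and 6111 ± 402 in EmptyVector cells. That of the type IV class was 1975 ± 122, 1775 ± 9.15 and 3169 ± 118. The multiplexin class went the other way, at 1025 ± 58.0, 829 ± 68.6 and 559 ± 24.5. The fibrillar class was at 165 ± 13.0 in KDNTN1 cells, 60.7 ± 7.36 in KDUNC5B cells and 104 ± 59.7 in EmptyVector cells, where the libraries were at 61.5 and 146. Most of that sum was Col5a1 alone, at 144 ± 10.8, 42.5 ± 4.41 and 74.0 ± 50.4 in the same groups.

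Against EmptyVector, 3 of the 22 tested genes were higher and 5 lower in KDNTN1 cells (limma, adjusted p under 0.05). That is 36.4% of the tested members, beside 15.1% of all 15330 genes tested, of which 8.04% were higher and 7.06% lower. In KDUNC5B cells 1 was higher and 6 lower, 31.8% of the members, beside 12.0% of all genes, of which 5.90% were higher and 6.07% lower. The members had a median log2 fold change of -0.002 in KDNTN1 and -0.28 in KDUNC5B cells, and all genes one of -0.02 and 0.04. Both comparisons use the same EmptyVector libraries, so they are not independent of each other. Among the 22, Col27a1 reached the mean of 20 through EmptyVector cells alone and Col6a1 through KDNTN1 cells alone, and Lox, Col9a3 and Col4a3 were under it in 1 group each. Col27a1 is among the lower members counted in both comparisons. Without KDNTN1 library 1 or 2 the members called in that comparison numbered 4.

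**Figure D3:**
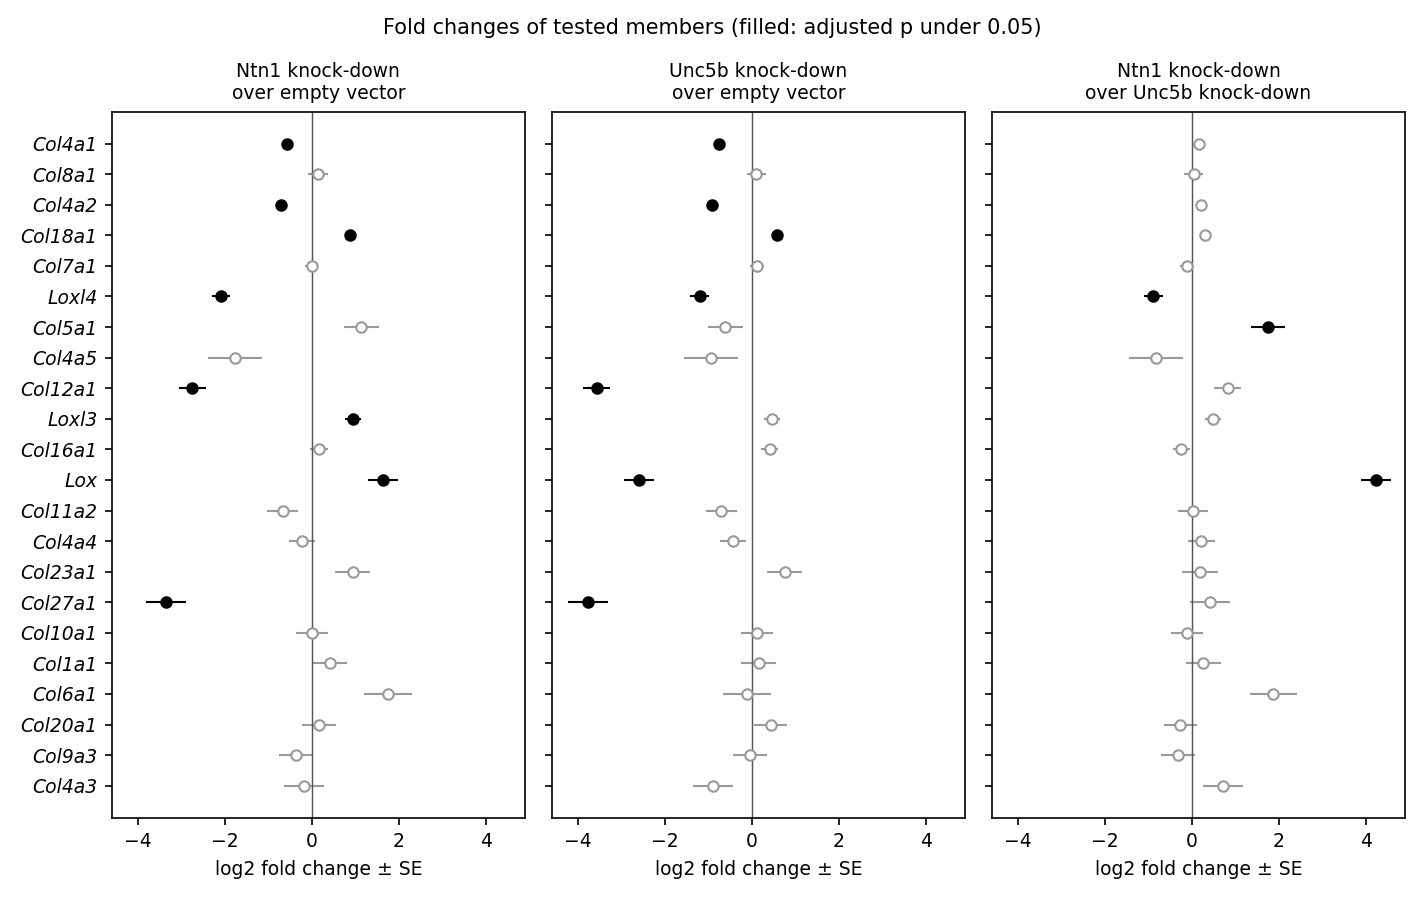
Log2 fold change on log2(value + 5) with its SE (horizontal axis) for the 22 tested genes in 3 comparisons, with filled points for an adjusted p under 0.05. Col12a1, Col27a1, Loxl4, Col4a1 and Col4a2 are filled and left of 0 in both comparisons with EmptyVector cells, and Lox is filled on opposite sides.

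The main type IV chains of basement membranes, Col4a1 and Col4a2, fell together in both knock-downs. Col4a1 (ENSMUSG00000031502, chromosome 8, 11198423 to 11312826 of GRCm38) was at 8596 and 7908 in KDNTN1 cells, 7218 and 7407 in KDUNC5B cells and 12701 and 12020 in EmptyVector cells. No knock-down library reached the EmptyVector libraries. The log2 fold change was -0.58 ± 0.10 (SE, adjusted p = 0.00722) in KDNTN1 and -0.76 ± 0.10 (adjusted p = 0.00298) in KDUNC5B cells.

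Col4a2 (ENSMUSG00000031503, chromosome 8, 11312805 to 11449287) was at 5709 and 5207 in KDNTN1 cells, 4563 and 4869 in KDUNC5B cells and 9763 and 8197 in EmptyVector cells. Again the groups did not overlap, and the log2 fold change was -0.71 ± 0.12 (adjusted p = 0.00632) in KDNTN1 and -0.92 ± 0.12 (adjusted p = 0.00266) in KDUNC5B cells. The ratio of Col4a1 to Col4a2 per kilobase was 1.34 and 1.35 in KDNTN1 cells, 1.40 and 1.35 in KDUNC5B cells and 1.15 and 1.30 in EmptyVector cells. In KDNTN1 cells the call of Col4a1 was lost without library 1 (adjusted p = 0.0704), without library 2 (0.114) and without the variance trend (0.0524), and that of Col4a2 without library 1 (0.064) or 2 (0.0975).

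The other type IV chains, which in mature kidney and some other basement membranes replace the main pair, did not pass in any comparison. Col4a5 was at 254 and 223 in KDNTN1 cells, 782 and 232 in KDUNC5B cells and 454 and 1500 in EmptyVector cells. The EmptyVector libraries differed by more than 3-fold, and the log2 fold change was -1.77 ± 0.62 (adjusted p = 0.0923) in KDNTN1 and -0.94 ± 0.62 (0.374) in KDUNC5B cells. Without EmptyVector library 1, Col4a5 was lower in KDNTN1 cells at -2.63 (adjusted p = 0.0127). Its head-to-head neighbour Col4a6 was at 4 in 1 KDUNC5B library and listed at 0 in the other 5 libraries. Col4a4 ranged over 51 to 103 and Col4a3 over 9 to 39 across the 6 libraries. Col4a3 shares 5.65% of its exon bases with the noncoding gene C430014B12Rik on the other strand, which was at 36 to 80. The strand setting of the counting is not given, so reads of the shared bases cannot be told apart.

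Col18a1, a basement membrane collagen of the multiplexin class (chromosome 10, 77052178 to 77166548), rose in both knock-downs. It was at 7476 and 6902 in KDNTN1 cells, 6160 and 5473 in KDUNC5B cells and 4043 and 3796 in EmptyVector cells, with no overlap between groups. The rise was 1.83-fold in KDNTN1 cells (log2 fold change 0.87 ± 0.11, adjusted p = 0.00175) and 1.48-fold in KDUNC5B cells (0.57 ± 0.11, adjusted p = 0.0142). The call in KDNTN1 cells held in the 15 alternatives run. In KDUNC5B cells it was lost without KDUNC5B library 1 (adjusted p = 0.0833), without KDNTN1 library 1 (0.0542) or 2 (0.0539), in a fit of the compared groups alone (0.0548), without the variance trend (0.0754) and with no filter (0.0564). Its class mate Col15a1 did not exceed 7 in any library.

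Col7a1, the anchoring fibril collagen, and Col8a1 were abundant and did not pass in either knock-down. Col7a1 was at 4354 and 5678 in KDNTN1 cells, 5698 and 5165 in KDUNC5B cells and 4553 and 5485 in EmptyVector cells. The log2 fold change of Col7a1 was -0.01 ± 0.15 in KDNTN1 and 0.12 ± 0.15 in KDUNC5B cells. Col8a1 was at 8871 and 8703, 10441 and 6995, and 6527 and 9754 in KDNTN1 cells, KDUNC5B cells and EmptyVector cells, with overlap between all groups.

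**Figure D4:**
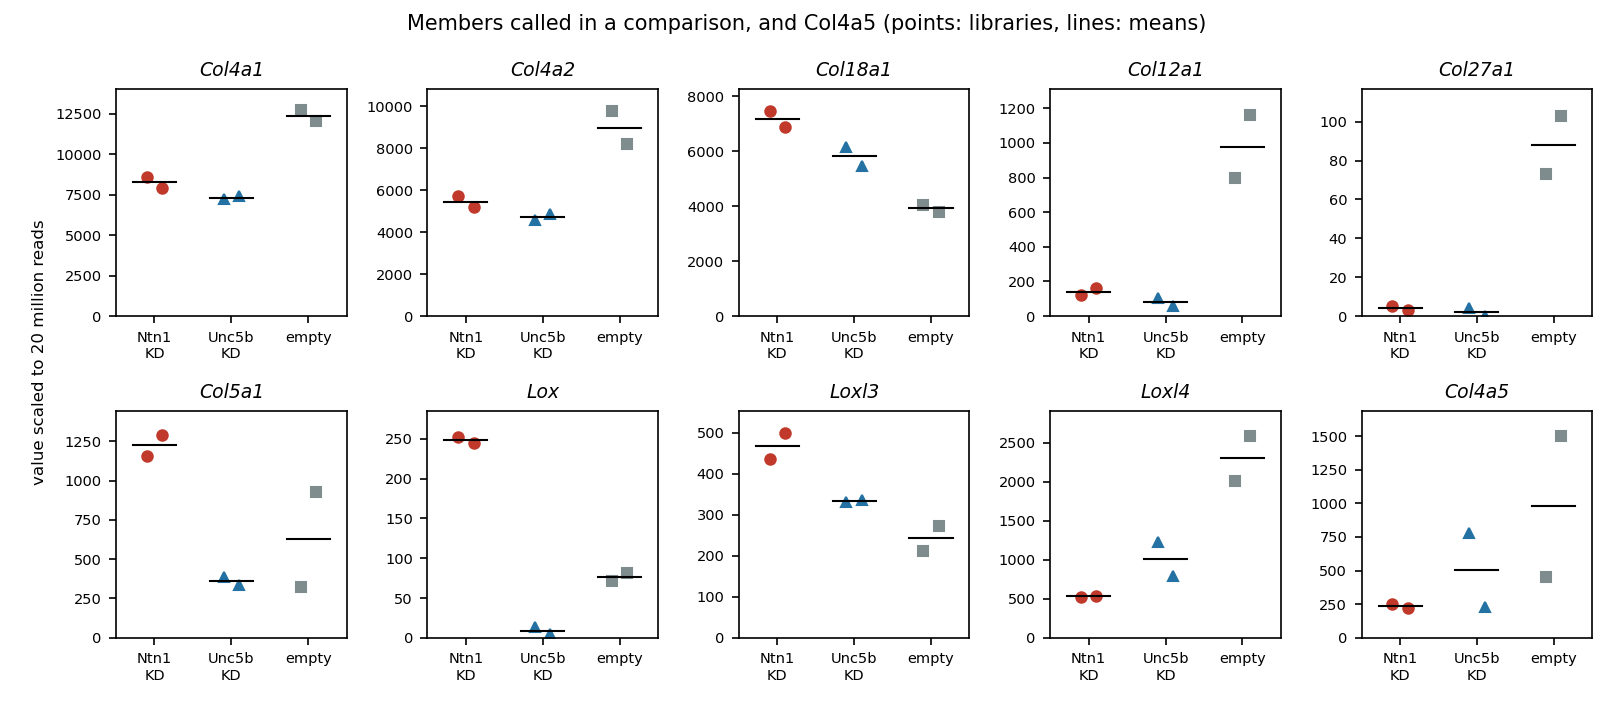
Values (vertical axis, scaled to 20 M reads, from 0) of the 9 genes called in any comparison and of Col4a5, with 1 point per library and a line at the mean of each group. Col12a1 and Col27a1 are low in all 4 knock-down libraries, Lox is high in KDNTN1 and low in KDUNC5B cells, and the EmptyVector points of Col5a1 and Col4a5 stand far apart.

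The fibril-associated collagen gene Col12a1 (chromosome 9, 79598991 to 79718831), whose product binds the surface of type I fibrils, had the largest fall among members with a mean over 100. It was at 121 and 159 in KDNTN1 cells, 103 and 56 in KDUNC5B cells and 798 and 1159 in EmptyVector cells. It was 6.99-fold lower in KDNTN1 cells (log2 fold change -2.75 ± 0.31, adjusted p = 0.00109) and 12.3-fold lower in KDUNC5B cells (-3.57 ± 0.31, adjusted p = 0.00047), and both calls held in the 15 alternatives run. Of the other fibril-associated members, Col16a1 was between 231 and 348 in every library and did not pass, with a log2 fold change of 0.16 ± 0.20 in KDNTN1 and 0.41 ± 0.20 in KDUNC5B cells. Col9a3 and Col20a1 lay between 16 and 32 in every library and did not pass.

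Among the fibrillar genes, Col27a1 (chromosome 4, 63214004 to 63334991), a fibrillar collagen known from cartilage, fell in both knock-downs. It was at 5 and 3 in KDNTN1 cells, 4 and 0 in KDUNC5B cells and 73 and 103 in EmptyVector cells. By the estimated depth these are 2 and 1, 2 and 0, and 37 and 45 reads, so no fold is given. Col27a1 passed the filter at a mean of 20 through EmptyVector cells alone, the group in which it was high. Its log2 fold change was -3.36 ± 0.47 (adjusted p = 0.00275) in KDNTN1 and -3.77 ± 0.47 (adjusted p = 0.0021) in KDUNC5B cells. The size of this change followed the value added before the logarithm. With 1 added it was -4.16 and -5.29, and with 20 added it was -2.16 and -2.29.

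Col5a1, whose chain starts and limits the growth of type I fibrils (chromosome 2, 27886425 to 28039514), was the highest fibrillar gene. It was at 1160 and 1290 in KDNTN1 cells, 387 and 334 in KDUNC5B cells and 326 and 931 in EmptyVector cells. The KDNTN1 libraries were above both EmptyVector libraries and the KDUNC5B libraries lay inside their range. Against EmptyVector it did not pass, at 1.14 ± 0.40 (adjusted p = 0.0918) in KDNTN1 and -0.61 ± 0.40 (0.371) in KDUNC5B cells. Without EmptyVector library 2 it was higher in KDNTN1 cells (1.89, adjusted p = 0.000402), and without library 1 it was lower in KDUNC5B cells (-1.36, adjusted p = 0.00163). Its exons share 99 and 113 bases with 2 noncoding genes of the other strand, and the strand setting of the counting is not given.

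The classical fibril genes of skin fibroblasts were near the limit of detection. Col1a1 was at 40 and 24 in KDNTN1 cells, 30 and 21 in KDUNC5B cells and 18 and 27 in EmptyVector cells, and did not pass. Col1a2 ranged over 5 to 25, Col3a1 over 2 to 28 and Col5a2 over 2 to 7 across the 6 libraries. Col11a2, at 48 to 133, did not pass either. Col6a1, a chain of the beaded filaments of type VI, was at 31 and 76 in KDNTN1 cells, 13 and 7 in KDUNC5B cells and 6 and 18 in EmptyVector cells. Its log2 fold change in KDNTN1 cells against EmptyVector was 1.76 ± 0.55 (adjusted p = 0.0668), and 2.30 without EmptyVector library 2. By the estimated depth Col6a1 had 13 and 25 reads in KDNTN1 cells, 6 and 3 in KDUNC5B cells and 3 and 8 in EmptyVector cells. It passed the filter at a mean of 20 through KDNTN1 cells alone, the group in which it was high. The transmembrane collagen gene Col23a1 was at 33 and 52, 43 and 30, and 26 and 14, and Col10a1 was at 21 to 37 in every library. Neither passed.

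Of the 26 members below a mean of 20, Col13a1, Col22a1 and Col6a5 were listed at 0 in every library and the highest value of any was 34, for Col8a2. Col5a3 was at 5 and 9 in KDNTN1 cells, 17 and 23 in KDUNC5B cells and 2 and 2 in EmptyVector cells, and Col14a1 at 0 and 3, 2 and 0, and 14 and 11. Col8a2, the partner chain of Col8a1, was at 5 and 9 in KDNTN1 cells, 34 and 16 in KDUNC5B cells and 26 and 27 in EmptyVector cells. Col6a2 reached 19 and Col6a3 11 in single libraries. The remaining members below the mean of 20, namely Col2a1, Col4a6, Col5a2, Col6a4, Col6a6, Col9a1, Col9a2, Col11a1, Col15a1, Col19a1, Col24a1, Col25a1, Col26a1 and Col28a1, stayed under 10 in every library. These genes were not tested, and most of their values were within the floor of 3 reads.

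The lysyl oxidase genes divided. Lox, the founding enzyme of the family, was higher in KDNTN1 cells and lower in KDUNC5B cells than in EmptyVector cells. It was at 252 and 245 in KDNTN1 cells, 13 and 5 in KDUNC5B cells and 71 and 82 in EmptyVector cells, and no group overlapped another. It rose 3.25-fold in KDNTN1 cells (log2 fold change 1.64 ± 0.34, adjusted p = 0.0145) and was lower in KDUNC5B cells (-2.60 ± 0.34, adjusted p = 0.0026). The KDUNC5B libraries held an estimated 6 and 2 reads, the latter under the floor of 3, so no fold is given for the fall. The fall held in the 15 alternatives run, and its size was -3.08 on the log2 scale with 1 and -1.75 with 20 added before the logarithm. The rise was no longer called without KDNTN1 library 1 (adjusted p = 0.124) or 2 (0.116) and with no filter (0.0654).

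Loxl4, an enzyme of the family with scavenger receptor domains (chromosome 19, 42593982 to 42612813), was the highest of the 5 in EmptyVector cells and fell in both knock-downs. It was at 523 and 538 in KDNTN1 cells, 1225 and 792 in KDUNC5B cells and 2003 and 2588 in EmptyVector cells. It was 4.33-fold lower in KDNTN1 cells (log2 fold change -2.09 ± 0.21, adjusted p = 0.000712) and 2.28-fold lower in KDUNC5B cells (-1.20 ± 0.21, adjusted p = 0.00949). The first call held in the 15 alternatives run, and the second was lost without KDUNC5B library 2 (adjusted p = 0.0525) and with no filter (0.0677).

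Loxl3, which has the same scavenger receptor domains (chromosome 6, 83034173 to 83052562), was at 435 and 498 in KDNTN1 cells, 331 and 336 in KDUNC5B cells and 212 and 272 in EmptyVector cells. It rose 1.93-fold in KDNTN1 cells (log2 fold change 0.94 ± 0.19, adjusted p = 0.012) and did not pass in KDUNC5B cells (0.47 ± 0.19, adjusted p = 0.151), although no library of the 2 groups overlapped. The rise was no longer called without KDNTN1 library 1 (adjusted p = 0.0805) or 2 (0.133). Loxl3 shares 11.6% of its exon bases with Htra2 on the other strand, and Htra2 was at 1267 and 1300 in KDNTN1 cells, 1208 and 1197 in KDUNC5B cells and 908 and 1061 in EmptyVector cells. Reads of the shared bases cannot be told apart without the strand setting. Loxl1 was at 19 and 15 in KDNTN1 cells, 4 and 2 in KDUNC5B cells and 2 and 2 in EmptyVector cells, and Loxl2 did not exceed 23 in any library. Both lay below the mean of 20.

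Per kilobase the 3 tested lysyl oxidases stood in the same order of means in every group, at different distances. In KDNTN1 cells Loxl4 (126 ± 2.52), Loxl3 (101 ± 9.68) and Lox (52.0 ± 1.04) lay closest to each other. In KDUNC5B cells they were at 239 ± 72.7, 72.5 ± 0.77 and 1.88 ± 1.18, and in EmptyVector cells at 545 ± 98.2, 52.6 ± 9.22 and 16.0 ± 1.63.

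Set directly against KDUNC5B cells, KDNTN1 cells had 2 members higher and 1 lower, which is 13.6% of the 22, beside 7.10% of all genes tested, of which 4.15% were higher and 2.95% lower. Lox differed most, with a log2 fold change of 4.24 ± 0.34 (adjusted p = 0.000879), and kept its call in the 15 alternatives run. Its size was 4.77 with 1 and 3.22 with 20 added before the logarithm. Col5a1 was 3.40-fold higher in KDNTN1 cells (1.75 ± 0.40, adjusted p = 0.0362) and Loxl4 1.90-fold lower (-0.89 ± 0.21, adjusted p = 0.0452). The call of Col5a1 was lost without any 1 of the 4 knock-down libraries (adjusted p = 0.235 and 0.251 without KDNTN1 library 1 and 2, and 0.13 and 0.182 without KDUNC5B library 1 and 2). That of Loxl4 was lost without KDNTN1 library 1 (0.282) or 2 (0.254) and without KDUNC5B library 1 (0.187). Without the variance trend both were lost (0.118 for Col5a1 and 0.127 for Loxl4), as they were with no filter (0.155 and 0.153), and that of Loxl4 also with a filter at a mean of 100 (0.0522).

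The remaining members did not pass in this direct comparison. Among them were members called against EmptyVector, namely Col4a1 (log2 fold change 0.17 ± 0.10, adjusted p = 0.359), Col4a2 (0.21 ± 0.12, 0.35), Col18a1 (0.31 ± 0.11, 0.145) and Col12a1 (0.82 ± 0.31, 0.163). The others of these were Loxl3 (0.47 ± 0.19, 0.172) and Col27a1 (0.415 ± 0.47, 0.656). Col6a1, at 31 and 76 in KDNTN1 against 13 and 7 in KDUNC5B cells, had a log2 fold change of 1.88 ± 0.55 (adjusted p = 0.0814). It passed in a fit of the compared groups alone (0.038), and its log2 fold change was also 1.88 without EmptyVector library 1 or 2. Col6a1 reached the mean of 20 through KDNTN1 cells alone, the group in which it was high, so no support is drawn from this.

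Collagen chains are hydroxylated, folded and exported with the help of other proteins, of which 28 were put in a list and 23 were tested. In KDNTN1 cells 6 of the 23 were higher and 1 lower than in EmptyVector cells, and in KDUNC5B cells 3 were higher and 1 lower. Between the knock-downs 3 were higher and 0 lower in KDNTN1 cells. Over all genes tested, 15.1% were called in KDNTN1 cells and 12% in KDUNC5B cells against EmptyVector, and 7.1% between the knock-downs. Plod2, the lysyl hydroxylase of collagen telopeptides, was at 968 and 930 in KDNTN1 cells, 338 and 391 in KDUNC5B cells and 411 and 396 in EmptyVector cells. It rose in KDNTN1 cells (log2 fold change 1.22 ± 0.15, adjusted p = 0.00147) and was also higher there than in KDUNC5B cells (1.37 ± 0.15, adjusted p = 0.00229). The last call was lost without KDNTN1 library 1 (0.0705) or 2 (0.0611).

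P3h1 and P4ha1, a prolyl 3-hydroxylase and a catalytic subunit of prolyl 4-hydroxylase, were likewise higher in KDNTN1 cells than in either other group. P3h1 was at 90 and 73 in KDNTN1 cells, 24 and 9 in KDUNC5B cells and 22 and 25 in EmptyVector cells, with an adjusted p of 0.0358 against EmptyVector. P4ha1 was at 996 and 902, 645 and 519, and 633 and 569, with an adjusted p of 0.0275 against EmptyVector. Against KDUNC5B cells the adjusted p was 0.0223 for P3h1 and 0.0356 for P4ha1. Each of these calls depended on single libraries. Against EmptyVector, P3h1 was no longer called without KDNTN1 library 1 (0.221) or 2 (0.15) or EmptyVector library 1 (0.075) or 2 (0.0692), and P4ha1 without KDNTN1 library 1 (0.22) or 2 (0.138) or EmptyVector library 2 (0.076). Against KDUNC5B cells, P3h1 was no longer called without KDNTN1 library 1 (0.22) or 2 (0.158) or KDUNC5B library 2 (0.112), and P4ha1 without any 1 of those 4 libraries, the adjusted p lying between 0.0651 and 0.291.

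P3h4, Sparc and P3h2 of this list each changed in the same direction in both knock-downs. P3h4, which encodes a partner of P3h3 with no enzyme activity of its own known, was at 147 and 122 in KDNTN1 cells, 111 and 79 in KDUNC5B cells and 16 and 34 in EmptyVector cells (adjusted p = 0.00469 and 0.0159). Sparc, a collagen-binding glycoprotein gene, was at 1752 and 1602, 1372 and 1274, and 354 and 640 (adjusted p = 0.00226 and 0.00702). P3h2, the prolyl 3-hydroxylase known to act on type IV collagen, fell in both, at 109 and 86, 85 and 118, and 254 and 242 (adjusted p = 0.0101 and 0.0143). Ppib, a proline isomerase gene, rose 1.48-fold in KDNTN1 cells (adjusted p = 0.0104), and Plod3 rose 1.47-fold in KDUNC5B cells (adjusted p = 0.0215). Serpinh1, the gene of the collagen chaperone HSP47, was between 3604 and 4345 in every library and did not pass.

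Leaving out 1 library ended several of these calls. In KDNTN1 cells these were P3h4 (adjusted p = 0.067) without library 1, and P3h2 (0.0585 and 0.103) and Ppib (0.137 and 0.0997) without library 1 or 2. In KDUNC5B cells P3h4 was lost without KDUNC5B library 1 (0.0999) or 2 (0.0596), P3h2 without library 1 (0.0846), and Plod3 without any library but EmptyVector library 1, at up to 0.127.

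**Figure D5:**
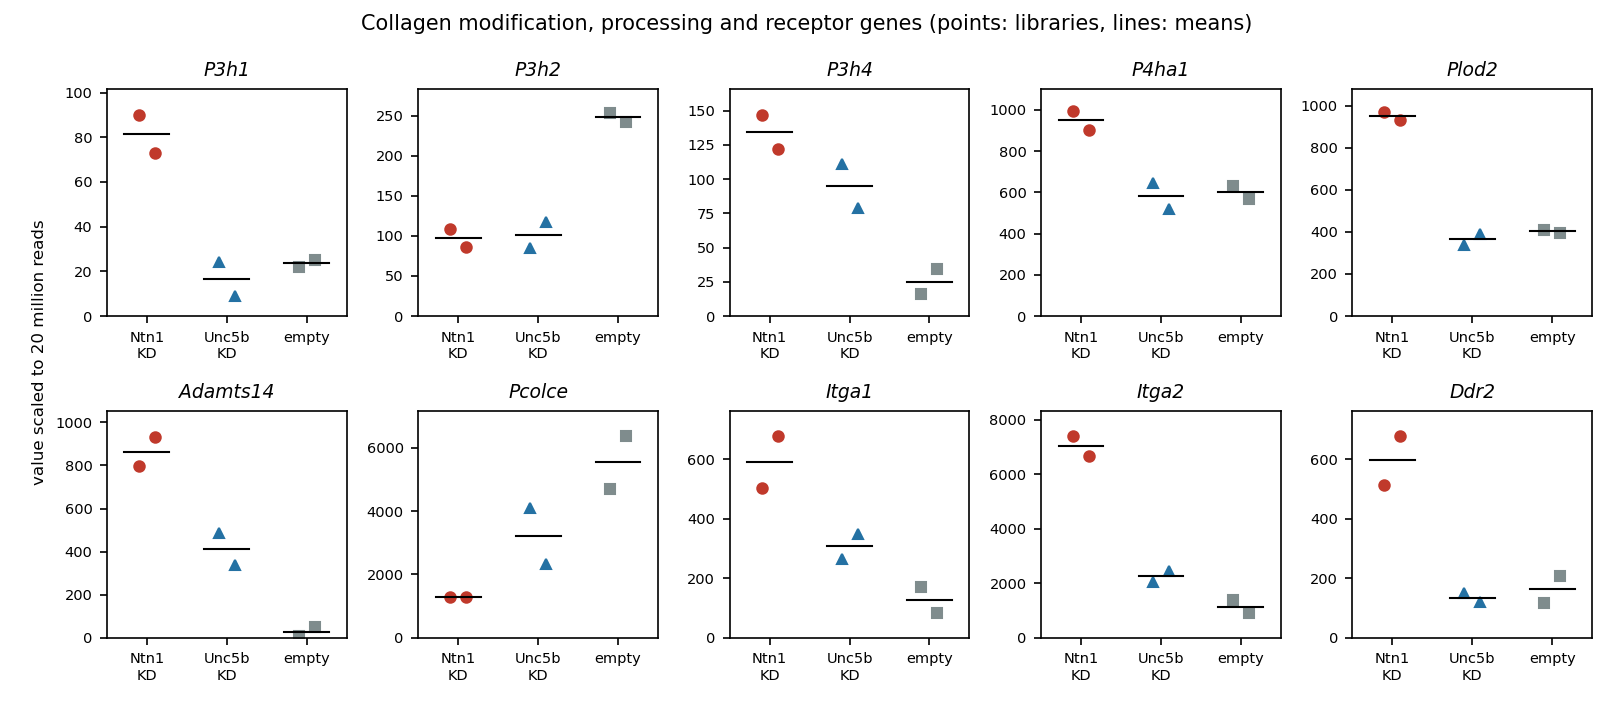
Values (vertical axis, scaled to 20 M reads, from 0) of 10 genes of collagen hydroxylation, procollagen processing and collagen binding, with 1 point per library and a line at the group mean. Plod2, P4ha1, P3h1, Itga2 and Ddr2 are highest in KDNTN1 cells, and Pcolce is highest in EmptyVector cells.

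Of 11 genes of procollagen processing, which cut or help to cut the propeptides, 5 were tested. In KDNTN1 cells 1 was higher and 1 lower than in EmptyVector cells, in KDUNC5B cells 2 were higher, and in KDNTN1 against KDUNC5B cells 2 were lower. The shares called over all genes tested were 15.1%, 12% and 7.1% in these comparisons. Adamts14, a protease of the amino-terminal propeptide, rose in both knock-downs, at 797 and 930 in KDNTN1 cells, 485 and 340 in KDUNC5B cells and 8 and 48 in EmptyVector cells (log2 fold change 5.04 ± 0.55 and 3.97 ± 0.55, adjusted p = 0.0009 and 0.00321). These log2 fold changes were 5.36 and 4.28 with 1 added before the logarithm and 4.34 and 3.29 with 20 added. Pcolce, an enhancer of carboxyl-terminal propeptide cleavage, was at 1274 and 1293, 4099 and 2346, and 4699 and 6389. It was 4.32-fold lower in KDNTN1 cells (adjusted p = 0.00128) and also lower there than in KDUNC5B cells (adjusted p = 0.0209), a call lost without KDNTN1 library 1 (0.2) or 2 (0.181) or KDUNC5B library 1 (0.0783). Against EmptyVector Pcolce passed in KDUNC5B cells without KDUNC5B library 1 (0.0164) or EmptyVector library 1 (0.0317). Furin, a proprotein convertase gene, was at 2668 and 2645, 4251 and 4308, and 3284 and 2819. It rose in KDUNC5B cells (adjusted p = 0.0274, lost without any library but EmptyVector library 1, at up to 0.138) and was lower in KDNTN1 than in KDUNC5B cells (adjusted p = 0.0117, lost without any 1 of the 4 knock-down libraries, at 0.0665 to 0.162). Bmp1, the main protease of the carboxyl-terminal propeptide, was between 4209 and 6805 in every library and did not pass.

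Of 11 genes of collagen receptors, 7 were tested. Against EmptyVector, 3 were higher in KDNTN1 cells, and 2 were higher and 1 lower in KDUNC5B cells. Another comparison had 2 higher in KDNTN1 than in KDUNC5B cells. Beside these counts, 15.1%, 12% and 7.1% of all genes tested were called in the same order of comparisons. Itga2, the alpha subunit of the main collagen integrin of keratinocytes, was at 7381 and 6678 in KDNTN1 cells, 2050 and 2455 in KDUNC5B cells and 1372 and 912 in EmptyVector cells. It rose 6.16-fold in KDNTN1 cells (log2 fold change 2.64 ± 0.19, adjusted p = 0.000203) and 1.97-fold in KDUNC5B cells (1.00 ± 0.19, adjusted p = 0.0127), and it was also higher in KDNTN1 than in KDUNC5B cells (adjusted p = 0.003).

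Itga1, a collagen integrin subunit with a preference for type IV collagen, was at 504 and 676 in KDNTN1 cells, 263 and 350 in KDUNC5B cells and 171 and 82 in EmptyVector cells (adjusted p = 0.00348 and 0.0375). Ddr2, a receptor kinase for fibrillar collagen, was at 514 and 679, 150 and 120, and 118 and 208, and it rose in KDNTN1 cells against EmptyVector (adjusted p = 0.00419) and against KDUNC5B cells (0.00604). Ddr1, the related receptor of epithelia, was at 1750 and 1648, 1552 and 1269, and 2007 and 2190, and fell in KDUNC5B cells (adjusted p = 0.0281).

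Some receptor calls rested on single libraries. Against EmptyVector in KDNTN1 cells, Ddr2 (adjusted p = 0.066) and Itga1 (0.058) lost theirs without KDNTN1 library 2. In KDUNC5B cells Itga2 was lost without library 2 (0.102), and Itga1 and Ddr1 at up to 0.218 and 0.172, Itga1 without any library but EmptyVector library 1 and Ddr1 without any library but that and KDUNC5B library 1. Between the knock-downs, Itga2 was no longer called without KDNTN1 library 1 (0.0771) or 2 (0.0611), and Ddr2 without library 1 (0.0736) or 2 (0.107) or KDUNC5B library 2 (0.0508).

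Other settings also ended calls of these modifying, processing and receptor genes. In KDNTN1 cells against EmptyVector, P4ha1 (adjusted p = 0.0733) and P3h1 (0.112) were not called with no filter, P4ha1 (0.0703) and Ppib (0.0546) without the variance trend, and P3h1 (0.0513) with 1 added before the logarithm. In KDUNC5B cells, Itga1, Itga2, Ddr1, Plod3, P3h2, P3h4, Sparc and Furin were not called with no filter (adjusted p = 0.0514 to 0.151), Itga1, Itga2, Ddr1, Plod3 and Furin without the trend (0.0648 to 0.104), and Itga1, Ddr1, Plod3, P3h4 and Furin in a fit of the compared groups alone (0.051 to 0.0909). Between the knock-downs, Ddr2, P3h1, P4ha1, Pcolce and Furin were not called with no filter (0.0549 to 0.112), and P4ha1, Pcolce and Furin without the trend (0.0691 to 0.0906). In the fit of those groups alone Itga1 (0.0208) and Adamts14 (0.00858) were called higher in KDNTN1 cells.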

How the data were processed

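Each of the 6 libraries sums to about 20 M in the deposited table, which holds whole numbers only. They were treated as a score, that is, read counts that the authors scaled and rounded, not raw counts. Per the submitters' processing notes, STAR, Picard and HTSeq and the build GRCm38 were used; versions, annotation, strand setting and the handling of duplicates were not found in the sources used here. No column was left out. The identifiers of all 48 members were found in GENCODE M21.

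Values were tested as log2(value + 5) in 15330 genes, those whose mean reached 20, with limma 3.58.1 in R 4.3.3 (3 groups, variance trend, 3 residual and 5.33 prior degrees of freedom, two-sided tests, Benjamini-Hochberg adjustment over all genes tested within a comparison). A gene was called at an adjusted p under 0.05. Adding 5 shrinks the log2 fold changes of low genes; fold values are ratios of group means as deposited. SDs are over 2 libraries. The fit was also run on simulated data drawn from the spread between these libraries, which cannot show whether that spread is technical.

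Depth was estimated from the step between low values (up to 150, within a tolerance of 0.5), taking the largest step that fits, and is not known exactly. Levels per kilobase use the union of a gene's exons in GENCODE M21, which may not be the annotation of the counting. Sequences are from RefSeq.

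The members and gene lists were chosen with earlier results of these data known. Every member with a mean of at least 20 is named, members called in any comparison and the 6 highest per kilobase are given for every library, and of each pathway list the called genes of largest change are named, at most 4 per direction; any other gene was named with its values in view. Alternatives were the value added, the filter, the scaling, the variance trend, the compared groups alone, a replicate block and leaving out each library.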

Additional observations from a re-analysis of the deposited data

How the results depend on the processing

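Of 18 calls of members, 10 held in the alternatives run, 8 were lost in at least 1 and 0 changed direction; of 48 uncalled member comparisons, 5 passed in at least 1. Over all genes, the calls in KDNTN1 cells against EmptyVector numbered 2314, 1289 with no filter, 1462 without the variance trend and 507 to 2769 without 1 library. In KDUNC5B cells they numbered 1835, 791 with no filter, 1115 without the trend, 950 in a fit of the compared groups alone and 680 to 2428 without 1 library. Between the knock-downs they numbered 1088, 302 with no filter, 454 without the trend, 1856 in a fit of the compared groups alone and 34 to 1842 without 1 library. Members called without 1 library were 4 to 10 in KDNTN1 and 6 to 8 in KDUNC5B cells, and 1 to 4 between the knock-downs, where 1 was called with no filter and 1 without the trend. Where a group is left with 1 library, the fit takes its spread from the remaining groups. The cause of these changes was not tested. Median-of-ratios and TMM scaling and another value added changed no call of a member.

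The replicate numbers are not stated to pair libraries. Deviations of same-numbered libraries correlated at 0.16 between KDNTN1 cells and EmptyVector cells, -0.45 between KDUNC5B cells and EmptyVector cells and -0.17 between the knock-downs. With a replicate block the calls over all genes numbered 1465, 1102 and 459 in these 3 comparisons, and those of members 8, 7 and 1, with Loxl4 (adjusted p = 0.106) and Col5a1 (0.0605) not called between the knock-downs. Of the other named genes, the block ended the calls of P3h1 (0.0606) and Unc5b (0.0552) in KDNTN1 cells, of Ddr1 (0.0702), Plod3 (0.0641), Furin (0.0697) and Itga1 (0.0844) in KDUNC5B cells, and of P4ha1 (0.0644), P3h1 (0.0505), Pcolce (0.0588) and Ntn1 (0.0817) between the knock-downs.

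Depth limits the members below a mean of 20, most of whose values are within 3 reads.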
